A study of Homo sapiens with 13 samples.

Results

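Translation factors are the proteins that bring messenger RNA, initiator tRNA and the ribosomal subunits together and that move the ribosome along the message. The genes described here were 48 cytosolic translation initiation and elongation factors, taken by gene symbol from a table of read counts of 60591 rows. All 48 symbols were in the table. Of these, 47 passed the filter on low counts, beside 19514 genes in all that passed it, and EEF1G, a subunit of elongation factor 1, did not because it had 0 counts in every library. RNA of cells labelled as the human esophageal squamous carcinoma line TE11 was sequenced in 13 libraries after 48 hours in 0.1% DMSO (vehicle, n = 4), in 10 µM chloroquine (n = 3), in 25 µM 5-fluorouracil (5-FU, n = 3) or in 10 µM chloroquine with 25 µM 5-FU (the combination, n = 3). Chloroquine collects in acid lysosomes and stops autophagosomes from being cleared. 5-FU is a uracil analogue that starves cells of thymidylate and enters RNA. The comparisons asked how each drug, and the pair, changed the level of these transcripts. The labels number the replicates without saying that they came from separate cultures. The p-values therefore rest on the spread of these libraries, and that spread may be technical.

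The totals ran from 17834539 to 23679833 counts. The lowest count of any tested factor was 65 for EIF4A1, then 252 for EEF2K and 705 for EEF1B2. The squamous keratin genes were near 0: KRT4 had 0 counts in all 13 libraries and KRT5 in 12, while SOX2 had 192 to 353 counts, and the 12 squamous markers summed to 21.4 to 22.3 CPM in vehicle, 16.5 to 17.3 with chloroquine, 14.1 to 16.7 with 5-FU and 15.1 to 17.9 with the combination. SOX2, a squamous lineage factor, itself fell with each treatment, as most factors did, at log2 fold changes of -0.40, -0.72 and -0.60. In the same order CDH1, also of these markers, was at -0.67, -0.43 and -0.54. EPCAM, another of them, went the other way, at 0.090, 0.51 and 0.64. By edgeR's quasi-likelihood test CDH1 with 5-FU (adjusted p = 0.0665) and EPCAM with chloroquine (adjusted p = 0.747) did not pass. CDH1 had only 27 to 57 counts and EPCAM 27 to 74. The part of these markers in the results was not tested. In 5 libraries (vehicle 4, chloroquine 1, chloroquine 2, 5-FU 2 and combination 2) the collagen gene COL1A2 had 153 to 741 counts, against 1 to 7 in the other 8. The 5 fibroblast markers summed to 10.5 to 128 CPM in vehicle, 11.8 to 94.2 with chloroquine, 24.4 to 40.4 with 5-FU and 13.1 to 29.8 with the combination, where CPM is a gene's count as a share of its library, scaled by the TMM method of edgeR. Over the 4 acinar markers the sums reached 23.9, 20.5, 24.4 and 0.315 CPM in the same order. The part of the fibroblast and acinar transcripts in the results was not tested, and calls lost without those 5 libraries are named further on.

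Translation begins when eIF2, loaded with GTP and initiator tRNA, joins the small ribosomal subunit with eIF1, eIF1A, eIF5 and the large eIF3 complex. The cap-binding complex of eIF4E, the scaffold eIF4G and the helicase eIF4A, helped by eIF4B or eIF4H, recruits the message, and poly(A)-binding protein holds its tail. eIF2B recharges eIF2 with GTP, and phosphorylation of eIF2 blocks that step in the integrated stress response, while 4E-binding proteins, controlled by the kinase mTOR, hold eIF4E away from eIF4G. In elongation, eEF1A delivers aminoacyl-tRNA, eEF1B reloads eEF1A, eEF2 moves the ribosome on, and eIF5A, which carries the modified amino acid hypusine, relieves stalled ribosomes.

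Many messages for ribosomal proteins and several for translation factors begin with a C and a run of pyrimidines, the terminal oligopyrimidine (TOP) sequence, through which mTOR sets how well they are translated. The start sites are shown because this feature was not used to choose the genes, and the values of the factors with and without it are set side by side further on, with no test. RefSeq promoters of build GRCh38.p14 matched 38 of the 48 genes. None was matched for EIF2S2, EIF3A, EIF3E, EIF3G, EIF3H, EIF3L, EIF4EBP1, EEF1D, PABPC1 and PABPC4. The search was for a C followed by at least 4 bases that are each C or T, on the gene's strand only, beginning at the annotated start. Of the 38 genes 10 had it (26.3%), against 4.04% of 27305 promoters and 64.3% of 70 genes of ribosomal proteins. Each line gives 5 bases before the start and 20 from it, 5′ to 3′ on the gene's strand, with the pyrimidine run in capitals. On the plus strand lie EIF2A (chr3:150546782-150546806), EIF2S3 (chrX:24054951-24054975), EIF3F (chr11:7987332-7987356), EIF3K (chr19:38619183-38619207), EIF3M (chr11:32583826-32583850), EIF4A2 (chr3:186783572-186783596) and EIF4B (chr12:53006451-53006475). On the minus strand lie EIF3D (chr22:36529147-36529171), EEF1A1 (chr6:73521013-73521037) and EEF2 (chr19:3985444-3985468).
EIF2A: ggtttCTCTTTCCgggacaacatgg
EIF2S3: ccttcCTCTTTTggcaacatggcgg
EIF3D: gtttcCTCTTTTCCTggtttctcaa
EIF3F: gcctcCTTCTTTCTCgacaagatgg
EIF3K: accacCTCTTCCTgttcccgtcctt
EIF3M: gttccCTTTTCCggtcggcgtggtc
EIF4A2: gctgtCTTTTCagtcgggcgctgag
EIF4B: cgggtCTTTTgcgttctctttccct
EEF1A1: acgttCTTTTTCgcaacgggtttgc
EEF2: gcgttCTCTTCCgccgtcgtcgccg

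For contrast, 4 factors with no such run at the annotated start, chosen after their values were seen, have their first 5 bases in capitals. EIF5A (chr17:7306994-7307018), EIF2S1 (chr14:67360323-67360347), EIF5 (chr14:103334232-103334256) and EIF4G1 (chr3:184314601-184314625) are all on the plus strand of GRCh38.p14, from RefSeq. Allowing the run to begin within 10 bases of the start gave 18 of 38 genes (47.4%), against 26.0% of all promoters and 75.7% of the genes of ribosomal proteins.
EIF5A: acccgACCACactagcgcgctagaa
EIF2S1: tccgcATGCGcggtggagtgagcga
EIF5: tgttcAGTCAgagcgagaacattcc
EIF4G1: gagccGGAAAtggttgtggactacg

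In vehicle and in the genes' own rows, the most abundant transcript per length was EEF2, at 976 ± 29.3 CPM per kb of annotated exon (SD, n = 4), followed by EEF1A1 at 394 ± 30.3, EIF3I at 311 ± 13.2 and PABPC1 at 274 ± 2.86 CPM per kb. With the counts of its annotated copies added, EEF1A1 stood at 1546 ± 60.7 CPM per kb, above EEF2, so the order of the pair depends on how these reads are assigned. The scaffold genes EIF4G2 and EIF4G1 stood at 197 ± 5.24 and 151 ± 3.68 CPM per kb. EEF2K, the kinase that inhibits eEF2, and EIF4E, the cap-binding protein, were low in their own rows at 2.70 ± 0.102 and 4.87 ± 0.276 CPM per kb. With copies added EIF4E stood at 10.8 ± 0.351 CPM per kb. The row of EIF4A1 was lower than that of EEF2K, at 2.52 ± 0.183 CPM per kb, and with copies stood at 68.6 ± 1.02. The 13 subunits of eIF3, which sit together in 1 complex, ranged on this scale, in their own rows, from 13.2 ± 0.198 for EIF3F to 311 for EIF3I. Exon lengths are from GENCODE release 29, and that annotation may not be the one used for counting.

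Reads of several factors were divided between the gene and near-identical copies. Processed pseudogenes (member symbol followed by P and a number) were in the table for 25 of the 48 genes, 148 copies in all. For EEF1A1, 39 copies held 73.2 to 76.0% of the reads of gene and copies together, EEF1A1P5 alone 46059 to 102677 counts. The copies of EEF1B2 held 87.2 to 90.5%, those of EIF2S2 58.6 to 64.0%, those of EIF4E 50.2 to 59.0%, those of EIF4B 39.9 to 46.4% and those of EIF3F 31.1 to 43.2%. EIF4A1, the main helicase subunit, had only 13.4 ± 0.973 CPM in vehicle (SD, n = 4) in its own row, and 13 copies held 90.1 to 98.4% of the joint reads. In the same annotation 48.6% of the exon bases of EIF4A1 are shared with other genes on its strand, and 99.9% of those of EEF1G, which was at 0, with AP002990.1. EIF3L shares 41.1% of its exon bases on its strand with AL022311.1. At least 10% of exon bases are shared with genes on the opposite strand for 8 genes (EIF5B, EIF2B1, EIF2B2, EIF2B3, EIF3L, EIF4B, EIF4E2 and EEF1D). The library kit keeps strand, and the labels do not state whether counting used it. Values for these genes are uncertain to that extent, and values with the counts of the copies added to the gene are given where they change a call.

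Compared with vehicle, most factor transcripts were lower with each treatment. With chloroquine 27 of the 47 tested factors fell, 10 rose and 10 did not pass the test (adjusted p under 0.05, edgeR's quasi-likelihood test adjusted over all 19514 genes). Of all tested genes 19.1% fell and 20.3% rose in that comparison, 39.4% in either direction. The median log2 fold change of the factors was -0.28, against 0.0228 over all genes. With 5-FU 35 fell, 4 rose and 8 did not pass, where 29.5% of all genes fell and 30.8% rose (60.3% in all), and the medians were -0.39 and 0.0101. With the combination 31 fell, 2 rose and 14 did not pass, where 27.2% of all genes fell and 28.1% rose (55.4% in all), and the medians were -0.27 and 0.00568. Among the 10299 genes at or above the lowest level of a tested factor, the share that fell was 30.5% with chloroquine, 45.2% with 5-FU and 39.9% with the combination, and their median log2 fold changes were -0.06, -0.125 and -0.0774. In the same order 19%, 25.9% and 26.4% of them rose. That lowest level was that of the row of EIF4A1, and these genes were not matched in level to the factors. The 3 comparisons share the vehicle libraries. All these counts are of the genes' own rows, in which EIF4A1 is among the rises with chloroquine and 5-FU. With its copies added EIF4A1 fell in both, at -0.71 and -1.08.

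**Figure D1:**
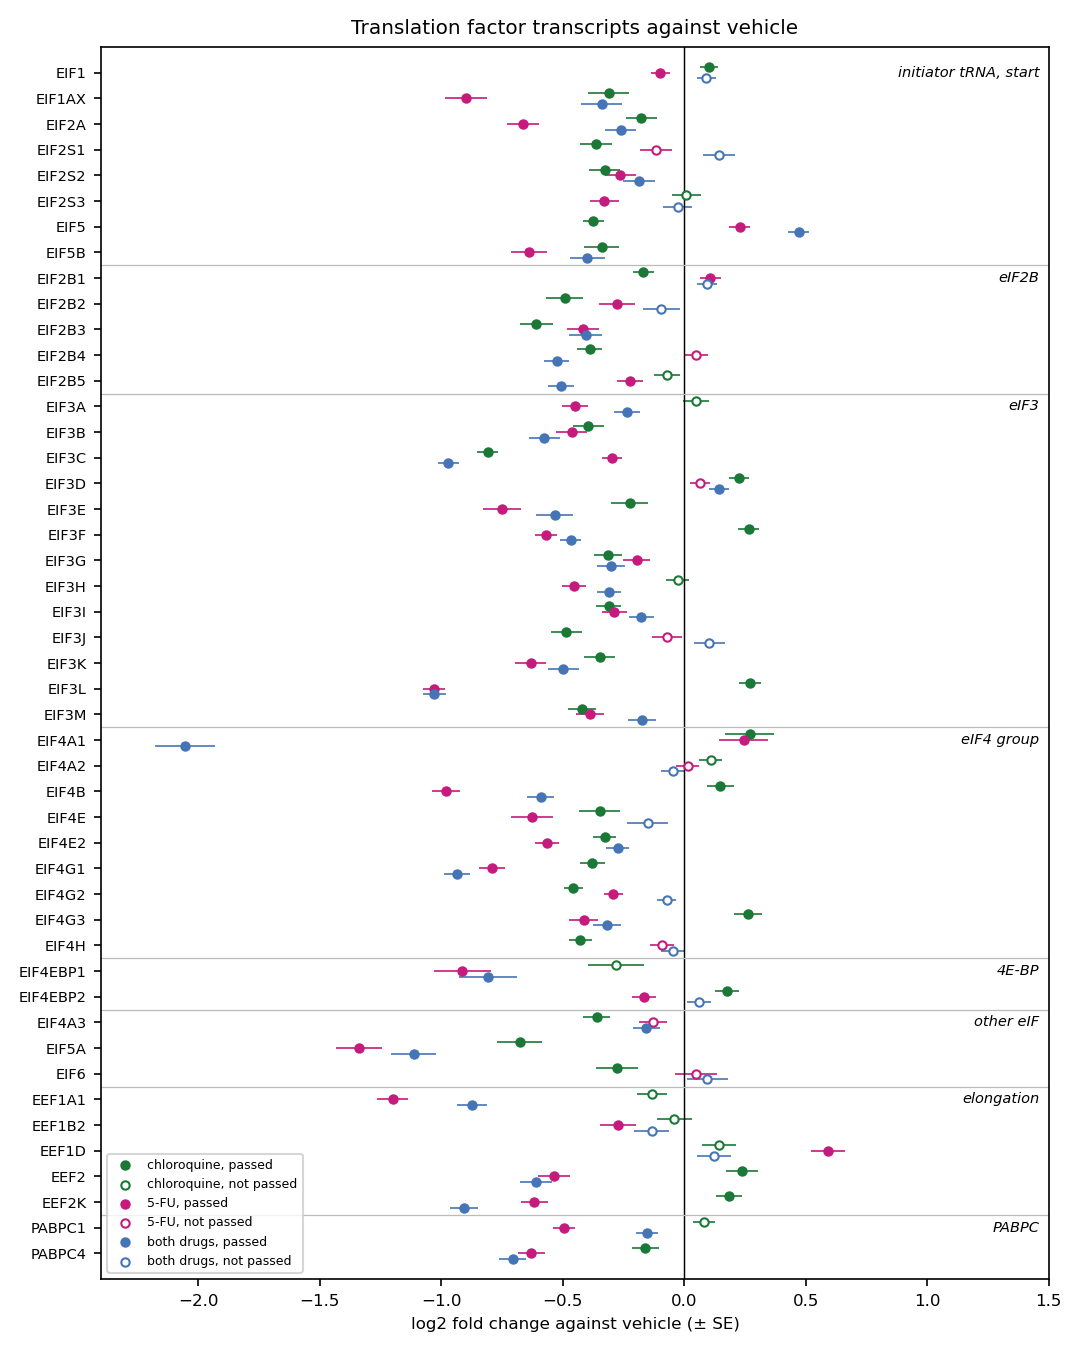
The log2 fold change against vehicle (horizontal axis, bars are SE) of each of the 47 tested factors (rows, grouped by role) with chloroquine, 5-FU and both drugs, with filled points where the adjusted p was under 0.05. Most points lie left of 0, EIF5A, EEF1A1 and EIF3L lie far left with 5-FU and with both drugs, and the EIF4A1 point of both drugs, at -2.06, is that of the gene's own row without its copies.

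Most changes were small. In the genes' own rows a fall of 2-fold or more was measured for no factor with chloroquine, for 3 with 5-FU (EIF5A, EEF1A1 and EIF3L) and for 3 with the combination (EIF4A1, EIF5A and EIF3L), and no factor rose 2-fold. With its copies added EIF4A1 fell by more than 2-fold with 5-FU too, at -1.08. Of all genes 0.533%, 3.04% and 2.96% fell and 4.4%, 11% and 8.42% rose that much and passed. The libraries of the 2 groups did not overlap for 38 factors with chloroquine, 37 with 5-FU and 35 with the combination, against 47.8%, 58.1% and 58.8% of all genes. In their own rows, without copies, the 48 genes together took 2.00 ± 0.0084% of all counts in vehicle (SD, n = 4), 2.00 ± 0.011% with chloroquine, 1.62 ± 0.019% with 5-FU and 1.69 ± 0.010% with the combination (SD, n = 3 each). The copies of EEF1A1, left out of this share, had means of 6850, 6290, 3020 and 3660 CPM in the same order. CPM is a share of each library, so fewer cells with a transcript and less of it per cell cannot be told apart, nor can a change in total RNA be seen. Scaling by library size alone moved the median of all genes by 0.0956, 0.192 and 0.148 in the 3 comparisons, and the factors that rose and fell were then 14 and 21 with chloroquine, 9 and 25 with 5-FU, and 9 and 23 with the combination. In that scaling 12.4%, 18.8% and 18.8% of all genes fell. The falls that did not pass in it were those of EIF1AX, EIF2A, EIF2B1, EIF3E, EIF6 and PABPC4 with chloroquine. With 5-FU they were those of EIF2S2, EIF2S3, EIF2B2, EIF2B5, EIF3G, EIF3I, EIF4G2 and EEF1B2, besides EIF1 and EIF4EBP2, whose values were above 0. With the combination they were those of EIF1AX, EIF2A, EIF2S2, EIF3A, EIF3I, EIF3M, EIF4A3 and PABPC1.

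Over the 8 factors of initiator tRNA binding, start codon choice and subunit joining, 6 fell and 1 rose with chloroquine, 6 fell and 1 rose with 5-FU, and 4 fell and 1 rose with the combination. EIF5, which triggers GTP hydrolysis by eIF2, was the factor that rose with 5-FU and with the combination. EIF5 had 336, 344, 347 and 329 CPM in the vehicle libraries and 254, 263 and 268 CPM with chloroquine. It had 374, 417 and 402 CPM with 5-FU and 473, 476 and 462 CPM with the combination. The 4 groups did not overlap, with chloroquine lowest, vehicle next, then 5-FU, and the combination highest. Its log2 fold change was -0.37 ± 0.044 (SE; adjusted p = 1.6e-05) with chloroquine, 0.23 ± 0.043 (SE; adjusted p = 0.000357) with 5-FU and 0.47 ± 0.043 (SE; adjusted p = 4.61e-07) with the combination.

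EIF1AX, which encodes eIF1A, a factor of scanning and start codon choice, fell in all 3 treatments. EIF1AX read 448, 449.5, 429 and 417 CPM in the vehicle libraries and 336, 338 and 379.6 CPM with chloroquine. Its values were 192, 269 and 239 CPM with 5-FU and 347, 343 and 343 CPM with the combination. The 5-FU libraries were the lowest, and the chloroquine and combination libraries overlapped. On the log2 scale EIF1AX changed by -0.31 ± 0.084 (SE; adjusted p = 0.0092) with chloroquine, -0.90 ± 0.086 (SE; adjusted p = 5.58e-07) with 5-FU and -0.34 ± 0.084 (SE; adjusted p = 0.00329) with the combination. Scaled by library size alone the chloroquine value of EIF1AX was -0.22 (adjusted p = 0.0569) and the combination value -0.19 (adjusted p = 0.0687), and in the 8 libraries with at most 50 counts of COL1A2 the chloroquine value was -0.22 (adjusted p = 0.109). EIF5B, the GTPase that joins the large subunit, followed the same order, at -0.34, -0.64 and -0.40, and so did EIF2A, an initiation factor distinct from eIF2, at -0.18, -0.66 and -0.26. The fall of EIF2A with chloroquine did not pass without vehicle 1, vehicle 3, vehicle 4, chloroquine 1, chloroquine 2 or chloroquine 3 (-0.20 to -0.16).

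The 3 subunits of eIF2 did not move alike. EIF2S1, the alpha subunit that stress kinases phosphorylate, had 172, 175, 173 and 173 CPM in the vehicle libraries and 135, 133 and 136 CPM with chloroquine. It stood at 139, 177 and 164 CPM with 5-FU and 185, 200.2 and 188 CPM with the combination. All chloroquine libraries lay below all vehicle libraries, the 5-FU libraries spanned the vehicle range, and the combination libraries were the highest. EIF2S1 fell with chloroquine, at a log2 fold change of -0.36 ± 0.066 (SE; adjusted p = 0.000565), and was at -0.12 (adjusted p = 0.142) with 5-FU and 0.14 (adjusted p = 0.0762) with the combination, neither passing the test. EIF2S2, the beta subunit, fell with each treatment (-0.33, -0.26 and -0.19). The last of these calls was lost without vehicle 1, vehicle 3, combination 1 or combination 3 (-0.18 to -0.16), and combination 2 against vehicle 4, the 2 libraries of these groups with over 50 counts of COL1A2, gave 0.011, a value from 1 library on each side. EIF2S3, the gamma subunit that binds GTP, fell with 5-FU (-0.33 ± 0.059 SE, adjusted p = 0.00024), and its values with chloroquine and the combination were 0.0091 (adjusted p = 0.922) and -0.027 (adjusted p = 0.73). EIF1, which guards start codon choice, changed by 0.10 (adjusted p = 0.0437) with chloroquine and -0.10 (adjusted p = 0.0356) with 5-FU. With its copies added the chloroquine value was 0.10 ± 0.038 (SE; adjusted p = 0.0527). The chloroquine call of EIF1 was lost in 12 of the 13 fits that each left out 1 library, those without vehicle 1 excepted (0.085 to 0.10) and the 5-FU call without vehicle 1, vehicle 2, 5-FU 1 or 5-FU 3 (-0.11 to -0.077), and with scaling by library size alone the 5-FU value was 0.094 (adjusted p = 0.0434).

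The 5 subunits of eIF2B were mostly lower with chloroquine, where 4 fell and the fifth, EIF2B5, did not pass. EIF2B3, the gamma subunit, read 71.1, 75.8, 72.1 and 70.6 CPM in the vehicle libraries and 43.6, 45.7 and 53.4 CPM with chloroquine. It read 53.2, 53.6 and 56.0 CPM with 5-FU and 51.9, 54.3 and 57.5 CPM with the combination. All treated libraries were below all vehicle libraries. EIF2B3 changed on the log2 scale by -0.61 ± 0.067 (SE; adjusted p = 9.71e-06) with chloroquine, -0.42 ± 0.066 (SE; adjusted p = 7.91e-05) with 5-FU and -0.41 ± 0.066 (SE; adjusted p = 0.000113) with the combination. With 5-FU 3 subunits fell and EIF2B1, the alpha subunit, rose by 0.11 (adjusted p = 0.0394), a call lost in 10 of the 13 fits that each left out 1 library, those without chloroquine 3, 5-FU 1 and combination 3 excepted (0.083 to 0.11). EIF2B4, the delta subunit, fell with chloroquine (-0.39) and with the combination (-0.53), with 0.049 (adjusted p = 0.412) under 5-FU alone. EIF2B5, the catalytic epsilon subunit, fell with 5-FU (-0.22) and the combination (-0.51), with -0.070 (adjusted p = 0.328) under chloroquine. EIF2B2, the beta subunit, fell with chloroquine (-0.49) and 5-FU (-0.28), with -0.094 (adjusted p = 0.307) under the combination.

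Within the eIF3 complex, the scaffold that bridges the small subunit and eIF4G, 8 of 13 subunits fell and 3 rose with chloroquine, 11 fell and 2 did not pass with 5-FU, and 11 fell and 1 rose with the combination. EIF3L had the largest fall of the complex with 5-FU. EIF3L read 249, 251, 266 and 264 CPM in the vehicle libraries and 314, 317 and 299.8 CPM with chloroquine. It read 129, 124 and 126 CPM with 5-FU and 133, 122 and 124 CPM with the combination. The chloroquine libraries were above all vehicle libraries, and the 5-FU and combination libraries, which overlapped each other, lay below all others. Against vehicle its log2 fold change was 0.27 ± 0.045 (SE; adjusted p = 0.000326) with chloroquine, -1.03 ± 0.047 (SE; adjusted p = 4.66e-10) with 5-FU and -1.03 ± 0.047 (SE; adjusted p = 5.41e-10) with the combination.

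EIF3C, a core subunit, was the eIF3 subunit that fell most with chloroquine. EIF3C had 468, 475, 463 and 466 CPM in the vehicle libraries and 276, 268 and 258 CPM with chloroquine. It had 384, 366 and 393 CPM with 5-FU and 231, 237 and 249 CPM with the combination. Both groups with chloroquine lay below 5-FU alone, which lay below vehicle, and the combination lay below chloroquine alone. EIF3C changed by a log2 value of -0.81 ± 0.043 (SE; adjusted p = 1.68e-08) with chloroquine, -0.30 ± 0.042 (SE; adjusted p = 2.62e-05) with 5-FU and -0.97 ± 0.043 (SE; adjusted p = 4.07e-10) with the combination. EIF3CL, a near-identical gene whose reads cannot be told from those of EIF3C with certainty, fell by 0.78 with chloroquine, by 0.33 with 5-FU and by 0.99 with the combination on the log2 scale.

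**Figure D2:**
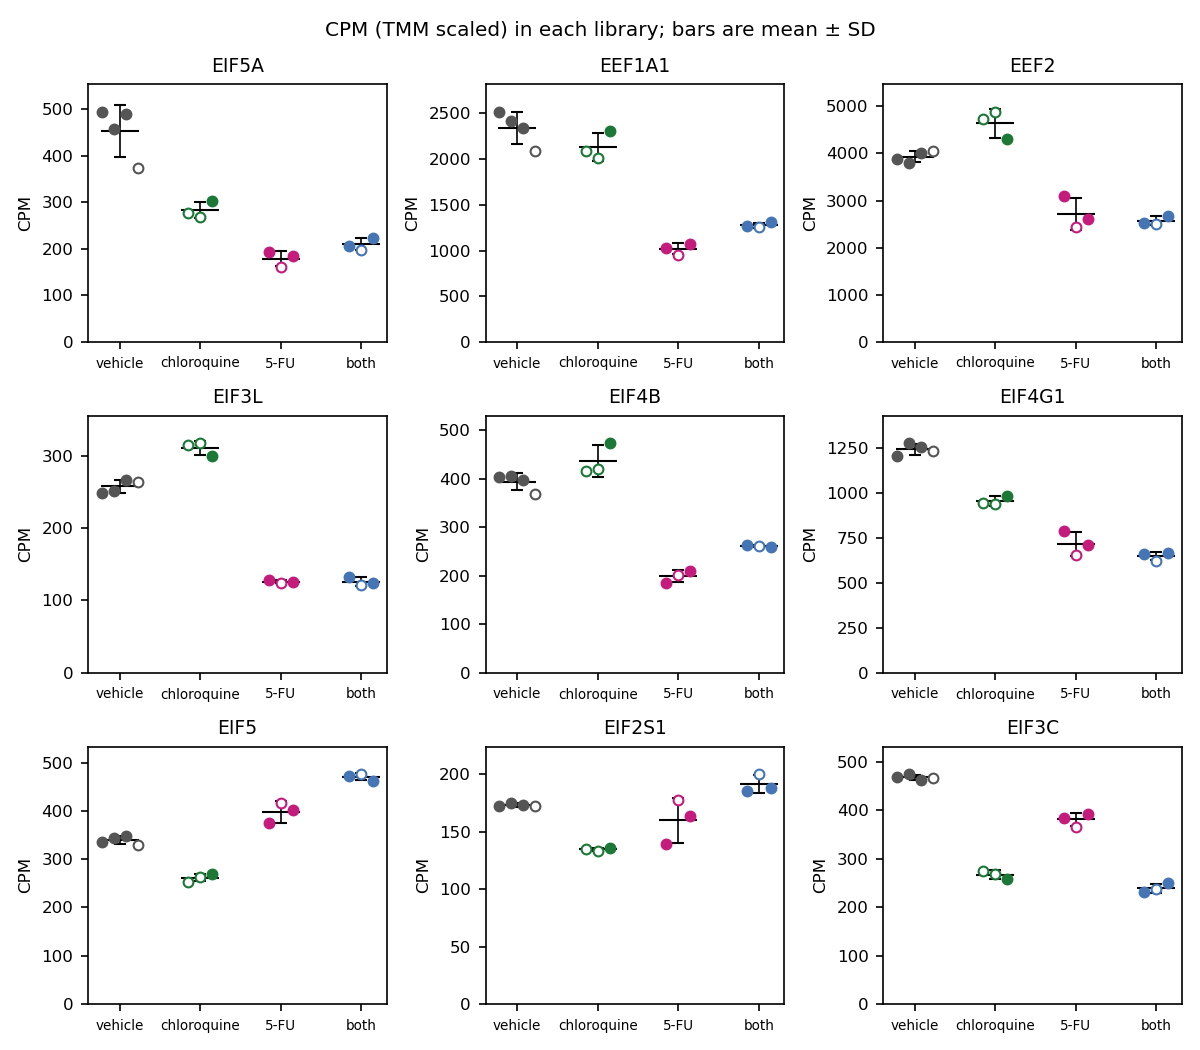
CPM (vertical axes, from 0) of 9 factors in each of the 13 libraries, by group, with the mean and SD as bars and open circles for the 5 libraries with over 50 counts of COL1A2. EIF5A, EEF1A1, EIF3L, EIF4B and EIF4G1 are lower with 5-FU and with both drugs than in vehicle, EIF5 is highest with both drugs, and EIF3C is lowest in the 2 groups that received chloroquine.

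EIF3F and EIF3D also rose with chloroquine. EIF3F, a subunit with a deubiquitinase-like fold, read 123, 125, 124 and 127 CPM in the vehicle libraries and 150.4, 155 and 144 CPM with chloroquine. It read 83.4, 86.8 and 81.5 CPM with 5-FU and 88.2, 92.1 and 90.0 CPM with the combination. Its chloroquine libraries were above all others, and its log2 fold changes were 0.26 ± 0.044 (SE; adjusted p = 0.000312) with chloroquine, -0.57 ± 0.045 (SE; adjusted p = 8.83e-08) with 5-FU and -0.47 ± 0.045 (SE; adjusted p = 7.44e-07) with the combination. With the counts of its copies added these were 0.16, -0.79 and -0.65, and between the combination and 5-FU EIF3F was at 0.14 ± 0.047 (SE; adjusted p = 0.027), where the row alone gave 0.10 (adjusted p = 0.109). EIF3D, a subunit that can itself bind the cap, was the eIF3 subunit that did not fall in any treatment: it rose by 0.22 with chloroquine and by 0.14 with the combination, the latter call lost without combination 2 (0.12), and changed by 0.063 (adjusted p = 0.205) with 5-FU.

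EIF3B, EIF3E, EIF3G, EIF3I, EIF3K and EIF3M fell in all 3 treatments. EIF3E had the lowest of their values, -0.75 with 5-FU, beside -0.23 with chloroquine and -0.53 with the combination. The chloroquine call of EIF3E was lost without vehicle 1, vehicle 2, vehicle 4, chloroquine 1 or chloroquine 2 (-0.24 to -0.20). EIF3K followed at -0.35, -0.63 and -0.50. EIF3M, whose combination value of -0.17 lost its call without combination 1 (-0.17) or combination 2 (-0.17), had -0.42 with chloroquine and -0.39 with 5-FU. EIF3A, the largest core subunit, and EIF3H fell with 5-FU (-0.45 and -0.46) and with the combination (-0.23 and -0.31), with 0.049 (adjusted p = 0.505) and -0.028 (adjusted p = 0.695) under chloroquine. EIF3J, a loosely bound subunit at the mRNA entry channel, fell with chloroquine (-0.49 ± 0.064 SE, adjusted p = 4.55e-05), and the values with 5-FU and the combination were -0.071 (adjusted p = 0.351) and 0.10 (adjusted p = 0.179).

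Among the 9 genes of cap binding, unwinding and scaffolding, 5 fell and 3 rose with chloroquine, 6 fell and 1 rose with 5-FU, and 5 fell and 4 did not pass with the combination. The rise with 5-FU, and 1 of the 3 with chloroquine, was that of the row of EIF4A1, which fell in both with its copies added. EIF4G1, the main scaffold, fell in all 3 treatments. EIF4G1 read 1208, 1278, 1257 and 1232 CPM in the vehicle libraries and 945, 939 and 986 CPM with chloroquine. It read 789.7, 658 and 708 CPM with 5-FU and 661, 625 and 666 CPM with the combination. Every treated library was below every vehicle library, and the 5-FU and combination libraries overlapped. Its log2 fold changes were -0.38 ± 0.052 (SE; adjusted p = 6.29e-05) with chloroquine, -0.79 ± 0.053 (SE; adjusted p = 1.68e-08) with 5-FU and -0.94 ± 0.053 (SE; adjusted p = 4.38e-09) with the combination. Its relative EIF4G3 rose with chloroquine (0.26) and fell with 5-FU (-0.41) and the combination (-0.32). EIF4G2, a scaffold that lacks the eIF4E site, fell with chloroquine (-0.46 ± 0.040 SE, adjusted p = 1.35e-06) and 5-FU (-0.29 ± 0.039 SE, adjusted p = 1.69e-05), with -0.072 (adjusted p = 0.136) under the combination.

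EIF4B, which stimulates the helicase, fell with 5-FU and with the combination. EIF4B read 404, 406, 397 and 368 CPM in the vehicle libraries and 417, 419 and 473 CPM with chloroquine. It read 185, 203 and 210 CPM with 5-FU and 262, 261 and 259.9 CPM with the combination. The 5-FU libraries were lowest, the combination libraries lay between them and vehicle, and no library of either group reached the vehicle range. EIF4B had a log2 fold change of -0.98 ± 0.058 (SE; adjusted p = 5.3e-09) with 5-FU and -0.59 ± 0.057 (SE; adjusted p = 7.65e-07) with the combination. With chloroquine it was 0.15 (adjusted p = 0.0475), a call lost in 11 of the 13 fits that each left out 1 library, those without chloroquine 1 and 5-FU 1 excepted (0.070 to 0.18). With the counts of its copies added, the 3 values were 0.17 with chloroquine, -0.96 with 5-FU and -0.61 with the combination. EIF4H, a smaller relative of EIF4B in function, fell with chloroquine (-0.43 ± 0.049 SE, adjusted p = 1.28e-05), and its values with 5-FU and the combination were -0.091 (adjusted p = 0.118) and -0.048 (adjusted p = 0.422).

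EIF4E, the cap-binding protein, fell with chloroquine (-0.35 ± 0.085 SE, adjusted p = 0.0048) and 5-FU (-0.63 ± 0.085 SE, adjusted p = 1.85e-05), with -0.15 (adjusted p = 0.141) under the combination. With the counts of its copies added the combination value of EIF4E was -0.24 ± 0.062 (SE; adjusted p = 0.00373). EIF4E2, a cap-binding relative that represses translation, fell in all 3 treatments (-0.33, -0.57 and -0.27). Of the 4E-binding proteins, EIF4EBP1 read 108, 103, 104 and 90.5 CPM in the vehicle libraries and 77.9, 80.3 and 92.6 CPM with chloroquine. EIF4EBP1 read 62.4, 47.0 and 52.3 CPM with 5-FU and 56.4, 48.4 and 69.2 CPM with the combination. Its chloroquine libraries overlapped vehicle, and both groups with 5-FU lay below it. On the log2 scale the change was -0.28 (adjusted p = 0.0679) with chloroquine, -0.91 ± 0.12 (SE; adjusted p = 1.13e-05) with 5-FU and -0.81 ± 0.12 (SE; adjusted p = 4.17e-05) with the combination. EIF4EBP2 moved less, at 0.18 (adjusted p = 0.0109), -0.16 (adjusted p = 0.0098) and 0.059 (adjusted p = 0.327). Its chloroquine call was lost without chloroquine 1 (0.15) or chloroquine 2 (0.16), and with scaling by library size alone the 5-FU value was 0.028 (adjusted p = 0.668).

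The helicase gene EIF4A1 gave opposite answers in its own row and with its copies. Its own row read 13.1, 14.8, 12.9 and 12.7 CPM in the vehicle libraries and 17.0, 15.5 and 15.9 CPM with chloroquine. It read 18.4, 13.3 and 15.9 CPM with 5-FU and 2.81, 3.28 and 3.57 CPM with the combination. On these counts EIF4A1 changed by 0.27 (adjusted p = 0.0491) with chloroquine and 0.24 (adjusted p = 0.0499) with 5-FU and fell with the combination (-2.06 ± 0.12 SE, adjusted p = 7.52e-09), whose libraries lay far below all others. The chloroquine call was lost in 10 of the 13 fits that each left out 1 library, those without vehicle 2, 5-FU 1 and 5-FU 2 excepted (0.23 to 0.30) and the 5-FU call in 11 of the 13 fits that each left out 1 library, those without vehicle 2 and 5-FU 2 excepted (0.12 to 0.24). With the counts of the 13 copies added, EIF4A1 read 369, 368, 357 and 365 CPM in the vehicle libraries and 218, 219 and 231 CPM with chloroquine. The sum was 193, 163 and 160 CPM with 5-FU and 174, 179 and 169 CPM with the combination. All treated libraries of the sum were below all vehicle libraries, and its log2 fold change was -0.71 ± 0.059 (SE; adjusted p = 7.68e-07) with chloroquine, -1.08 ± 0.059 (SE; adjusted p = 2.3e-09) with 5-FU and -1.07 ± 0.059 (SE; adjusted p = 3.06e-09) with the combination. Against 5-FU, the combination was at -2.30 in the row alone and at 0.014 ± 0.062 (SE; adjusted p = 0.893) in the sum. Why the row and the sum differ was not tested. EIF4A2, the second helicase gene, did not pass the test against vehicle, at 0.11 (adjusted p = 0.0853), 0.014 (adjusted p = 0.825) and -0.048 (adjusted p = 0.423), and its copies held 2.57 to 4.11% of the joint reads.

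**Figure D3:**
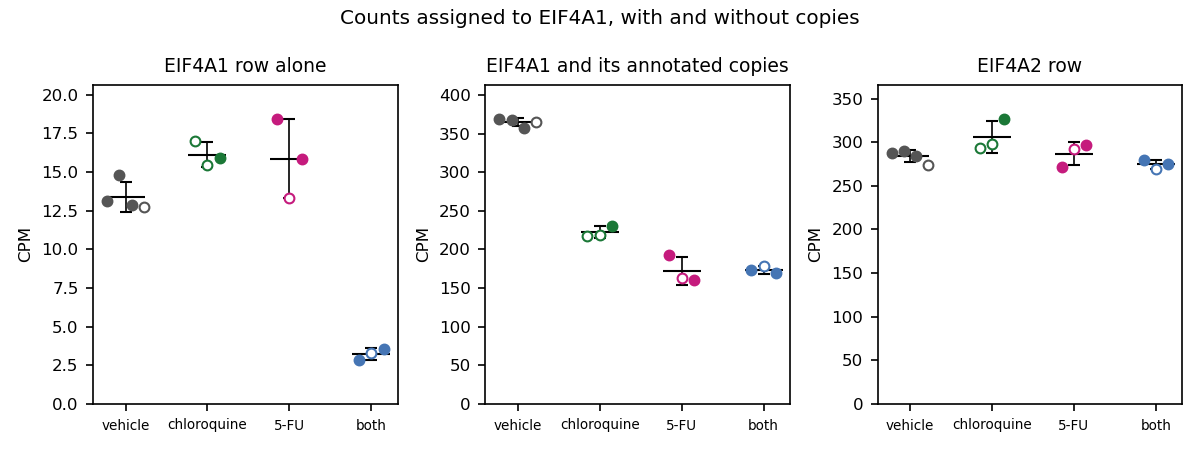
CPM (vertical axes, from 0, on different scales) in each library of the row of EIF4A1 alone, of EIF4A1 with its 13 annotated copies and of the row of EIF4A2, with mean and SD as bars and open circles for the 5 libraries with over 50 counts of COL1A2. The row alone drops only with both drugs, while the sum is lower with each treatment and EIF4A2 stays between 269 and 327 CPM.

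EIF5A had the largest fall of the 47 factors with 5-FU and, after EIF3C, with chloroquine. EIF5A read 494, 457, 489.8 and 373 CPM in the vehicle libraries and 278, 269 and 304 CPM with chloroquine. It read 192, 160.2 and 185 CPM with 5-FU and 207, 198 and 224 CPM with the combination. Vehicle 4 was the lowest vehicle library and still above every treated library, and the 5-FU and combination libraries did not overlap those of chloroquine. EIF5A had log2 fold changes of -0.68 ± 0.092 (SE; adjusted p = 5.51e-05) with chloroquine, -1.34 ± 0.094 (SE; adjusted p = 2.75e-08) with 5-FU and -1.11 ± 0.093 (SE; adjusted p = 1.87e-07) with the combination, which is 1.60-fold, 2.53-fold and 2.16-fold lower. The values with its copies added were -0.67, -1.32 and -1.10. EIF4A3, the helicase of the exon junction complex, fell with chloroquine (-0.36) and with the combination (-0.16), the second call being lost without vehicle 1, vehicle 3, combination 1 or combination 2 (-0.16 to -0.14). EIF6, which keeps the ribosomal subunits apart, changed by -0.28 (adjusted p = 0.0211) with chloroquine, a call lost without vehicle 1, vehicle 3 or chloroquine 3 (-0.26 to -0.23).

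Of the 5 tested elongation genes 2 rose and 3 did not pass with chloroquine, 4 fell and 1 rose with 5-FU, and 3 fell and 2 did not pass with the combination. EEF1A1, which delivers aminoacyl-tRNA, read 2515, 2413, 2344 and 2092 CPM in the vehicle libraries and 2089, 2010 and 2309 CPM with chloroquine. EEF1A1 read 1027, 956 and 1074 CPM with 5-FU and 1268, 1254 and 1310 CPM with the combination. The chloroquine libraries overlapped vehicle, and the 5-FU libraries lay below those of the combination, which lay below those of vehicle and chloroquine. For EEF1A1 the log2 fold change was -0.13 (adjusted p = 0.102) with chloroquine, -1.20 ± 0.063 (SE; adjusted p = 1.66e-09) with 5-FU and -0.87 ± 0.062 (SE; adjusted p = 4.13e-08) with the combination. With its 39 copies added the values were -0.13 ± 0.042 (SE; adjusted p = 0.0274), -1.19 and -0.90.

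EEF2, the translocase, and EEF2K, the kinase that inhibits it, both rose with chloroquine and fell in the other treatments. EEF2 read 3883, 3790, 4000 and 4053 CPM in the vehicle libraries and 4736, 4876 and 4295 CPM with chloroquine. EEF2 read 3089, 2436 and 2603 CPM with 5-FU and 2532, 2510 and 2680 CPM with the combination. The chloroquine libraries were above vehicle, and the 5-FU and combination libraries overlapped each other below it. EEF2 changed by 0.24 ± 0.065 (SE; adjusted p = 0.00965) with chloroquine, -0.54 ± 0.066 (SE; adjusted p = 6.68e-06) with 5-FU and -0.61 ± 0.066 (SE; adjusted p = 2.4e-06) with the combination, and the chloroquine call was lost without chloroquine 2 (0.20). EEF2K read 22.1, 20.4, 21.8 and 22.1 CPM in the vehicle libraries and 24.3, 24.4 and 24.9 CPM with chloroquine. EEF2K read 14.7, 13.4 and 14.2 CPM with 5-FU and 11.4, 11.3 and 11.9 CPM with the combination. Its 4 groups did not overlap, with chloroquine highest and the combination lowest. EEF2K changed by 0.18 ± 0.053 (SE; adjusted p = 0.0145) with chloroquine, -0.62 ± 0.056 (SE; adjusted p = 3.29e-07) with 5-FU and -0.91 ± 0.057 (SE; adjusted p = 1.22e-08) with the combination, and the chloroquine call was lost without chloroquine 3 (0.16).

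EEF1D, an exchange factor subunit for eEF1A, was the elongation gene that rose with 5-FU. EEF1D read 83.9, 80.8, 78.8 and 77.8 CPM in the vehicle libraries and 89.4, 90.3 and 86.4 CPM with chloroquine. EEF1D read 135, 109.8 and 118 CPM with 5-FU and 81.2, 87.0 and 94.2 CPM with the combination. The 5-FU libraries were above all others, and the combination overlapped vehicle. The log2 fold change of EEF1D was 0.59 ± 0.069 (SE; adjusted p = 4.18e-06) with 5-FU, 0.14 (adjusted p = 0.121) with chloroquine and 0.12 (adjusted p = 0.151) with the combination, and 34.0% of its exon bases are shared with genes on the opposite strand. EEF1B2, another exchange factor subunit, fell with 5-FU (-0.27 ± 0.074 SE, adjusted p = 0.0051), and its own row did not pass in the other comparisons. With the copies, which hold most of its reads, its log2 fold change was -0.51 ± 0.047 (SE; adjusted p = 3.45e-07) with 5-FU and -0.18 ± 0.046 (SE; adjusted p = 0.00432) with the combination, with 0.029 ± 0.046 (SE; adjusted p = 0.659) under chloroquine. In the same sum the combination was at 0.33 ± 0.050 (SE; adjusted p = 0.000129) against 5-FU and -0.21 ± 0.049 (SE; adjusted p = 0.00271) against chloroquine, and the interaction was 0.30 ± 0.068 (SE; adjusted p = 0.00272). Of the poly(A)-binding proteins, PABPC1 fell with 5-FU (-0.49 ± 0.046 SE, adjusted p = 3.99e-07) and the combination (-0.15 ± 0.045 SE, adjusted p = 0.0105), with 0.082 (adjusted p = 0.166) under chloroquine. PABPC4 fell with 5-FU (-0.63), the combination (-0.71) and chloroquine (-0.16), the last call being lost without vehicle 1, vehicle 2, vehicle 3, chloroquine 1 or chloroquine 2 (-0.16 to -0.13).

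The patterns over the 3 treatments can be counted from these calls. A fall in all 3 was called for 16 factors, and a fall with both treatments that held 5-FU but not with chloroquine for another 6 (EIF2B5, EIF3A, EIF3H, EIF4EBP1, EEF1A1 and PABPC1). EIF3F, EIF3L, EIF4B, EIF4G3, EEF2 and EEF2K rose with chloroquine and fell in the other treatments. With chloroquine, 5-FU and the combination 19.1%, 29.5% and 27.2% of all genes fell. The share of all genes with each pattern over the 3 treatments was not counted, and the 3 comparisons share the vehicle libraries. In the 8 libraries with at most 50 counts of COL1A2 chloroquine had 1 library, whose spread is taken from the other groups, and part of the chloroquine calls was lost. EEF2 stood there at 0.14 (adjusted p = 0.234), EIF3L at 0.23 (adjusted p = 0.0505), EIF3F at 0.21 (adjusted p = 0.07), EIF4G3 at 0.21 (adjusted p = 0.0845) and EEF2K at 0.21 (adjusted p = 0.206), each above 0 and short of the threshold. The other calls lost with chloroquine were the rises of EIF1, EIF3D, EIF4EBP2 and the row of EIF4A1 and the falls of EIF1AX, EIF2A, EIF5B, EIF2B1, EIF3E and PABPC4, with PABPC4 at -0.062 (adjusted p = 0.63) and EIF5B at -0.21 (adjusted p = 0.0752). In those 8 libraries the calls of EIF1, EIF2B1 and EIF3G were lost with 5-FU and that of EIF3D with the combination. Lost there too were the call of EIF3H between the combination and 5-FU and those of EIF2B3, EIF2B4, EIF3C, EIF3H, EIF3M and EIF4A3 between the combination and chloroquine.

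Adding chloroquine to 5-FU raised more factors than it lowered. Between the combination and 5-FU 18 of 47 factors rose, 6 fell and 23 did not pass, where 20.2% of all genes rose and 18.3% fell (38.5% in all). A 2-fold change was measured for EIF4A1 alone, in its own row, where 1.02% of all genes rose and 3.95% fell that much. The median log2 fold change was 0.11, against 0.0248 over all genes, and the groups' libraries did not overlap for 28 factors, against 46.6% of all genes. Among the 10299 genes at or above the lowest level of a tested factor, 30.6% rose and 20.4% fell, with a median of 0.0646. Of the 8 factors of initiator tRNA binding and start codon choice 7 rose: EIF1AX by 0.56 ± 0.090 (SE; adjusted p = 0.000244), EIF2A by 0.40, EIF2S3 by 0.30, EIF2S1 by 0.26, EIF5B by 0.24, EIF5 by 0.24 and EIF1 by 0.19. EIF2S2 was at 0.076 (adjusted p = 0.422). EIF5B lost its call without 5-FU 1, 5-FU 3, combination 1 or combination 3 (0.16 to 0.25). Among the eIF4 genes EIF4E rose by 0.48 ± 0.090 (SE; adjusted p = 0.000863), EIF4B by 0.39, EIF4E2 by 0.29 and EIF4G2 by 0.22. PABPC1 rose by 0.34 and EEF1A1 by 0.33. The genes that fell were EIF4A1 in its own row, EIF3C (-0.67 ± 0.045 SE, adjusted p = 1.26e-07), EIF2B4 (-0.58 ± 0.054 SE, adjusted p = 2.6e-06), EEF1D (-0.47 ± 0.074 SE, adjusted p = 0.000207), EEF2K (-0.29 ± 0.062 SE, adjusted p = 0.00195) and EIF2B5 (-0.28 ± 0.057 SE, adjusted p = 0.00141).

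Same-numbered libraries of 5-FU and the combination deviated together, and with the number as a block in those 6 libraries alone some calls between these groups were lost. EIF1 was then at 0.17 (adjusted p = 0.0873), EIF3E at 0.21 (adjusted p = 0.0673), EIF3H at 0.13 (adjusted p = 0.262), EIF3M at 0.20 (adjusted p = 0.0645) and EIF4EBP2 at 0.20 (adjusted p = 0.0534). Without the block EIF3E (0.22) lost its call in 12 of the 13 fits that each left out 1 library, those without 5-FU 2 excepted (0.10 to 0.23), EIF3H (0.14) in 10 of the 13 fits that each left out 1 library, those without chloroquine 1, chloroquine 3 and 5-FU 2 excepted (0.10 to 0.16) and EIF3M (0.21) without 5-FU 1 (0.17).

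Chloroquine was thus measured against vehicle and, in other libraries, against 5-FU, and these contrasts share no library. Of the 27 factors that fell with chloroquine alone, 10 rose when it was added to 5-FU (EIF1AX, EIF2A, EIF2S1, EIF5, EIF5B, EIF3E, EIF3M, EIF4E, EIF4E2 and EIF4G2), 15 did not pass and 2 fell again (EIF2B4 and EIF3C). Of the 10 that rose with chloroquine alone, EIF1, EIF4B and EIF4EBP2 rose again, EEF2K and the row of EIF4A1 fell, and 5 did not pass. The share of all genes with each such pair of calls was not counted. The difference itself, the interaction of the drugs, was above 0 for 25 factors and below 0 for 6, with 16 not passing, where it was above 0 for 20.6% of all genes and below 0 for 19.3% (39.9% in all). It was past 1 on the log2 scale for EIF4A1 alone, in its own row, and for 0.948% of all genes above 0 and 8.31% below. Its median was 0.28 over the factors and -0.00206 over all genes. Of the 10299 genes at or above the lowest level of a tested factor, 34.5% were above 0 and 17.5% below. The median of those genes was 0.127. With scaling by library size alone 18 factors were above 0 and 11 below, beside 12.2% and 25.9% of all genes and a shift of the median of all genes by -0.139.

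The interaction was above 0 for 7 of the 8 factors of initiator tRNA binding and start codon choice, with EIF1AX at 0.87 ± 0.12 (SE; adjusted p = 9.06e-05), EIF2S1 at 0.62 ± 0.095 (SE; adjusted p = 0.000166) and EIF5 at 0.62 ± 0.064 (SE; adjusted p = 6.81e-06). EIF5A had the largest positive value, 0.90 ± 0.13 (SE; adjusted p = 0.000124). EIF5A fell with chloroquine alone and was at 0.23 (adjusted p = 0.0827) when chloroquine was added to 5-FU. EIF4E (0.82 ± 0.12 SE, adjusted p = 0.000141), EIF4G2 (0.68 ± 0.058 SE, adjusted p = 1.32e-06) and EIF2B2 (0.68 ± 0.11 SE, adjusted p = 0.000277) followed. Below 0, besides EIF4A1 in its own row (-2.57, and 0.73 ± 0.085 SE, adjusted p = 1.81e-05 with its copies), were EEF1D (-0.61 ± 0.10 SE, adjusted p = 0.000314), EEF2K (-0.47 ± 0.082 SE, adjusted p = 0.000417), EEF2 (-0.31 ± 0.095 SE, adjusted p = 0.0178), EIF3L (-0.27 ± 0.067 SE, adjusted p = 0.00557) and EIF2B5 (-0.21 ± 0.078 SE, adjusted p = 0.0426). EEF2 lost this call without chloroquine 2, combination 1 or combination 2 (-0.29 to -0.27) and EIF2B5 in 10 of the 13 fits that each left out 1 library, those without vehicle 4, chloroquine 3 and 5-FU 2 excepted (-0.23 to -0.17). Elongation genes were thus 3 of the 6 below 0, with EEF1A1 above 0 at 0.46. EIF3B (0.28) lost its call without chloroquine 1, chloroquine 2, 5-FU 3 or combination 3 (0.25 to 0.28). EIF4B (0.24) lost it without vehicle 1, vehicle 2, vehicle 3, chloroquine 1, chloroquine 2, 5-FU 1 or combination 1 (0.20 to 0.25), and with copies added was at 0.18 ± 0.078 (SE; adjusted p = 0.0867). EIF4G1 (0.24) lost it without chloroquine 1, chloroquine 2 or combination 3 (0.22 to 0.23). In the 8 libraries with at most 50 counts of COL1A2 the interaction did not pass for EIF2S3, EIF2B5, EIF3B, EIF3L, EIF4B, EIF4G1, EEF2 and PABPC1, with EIF3L at -0.21 (adjusted p = 0.158) and EEF2 at -0.26 (adjusted p = 0.0733).

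**Figure D4:**
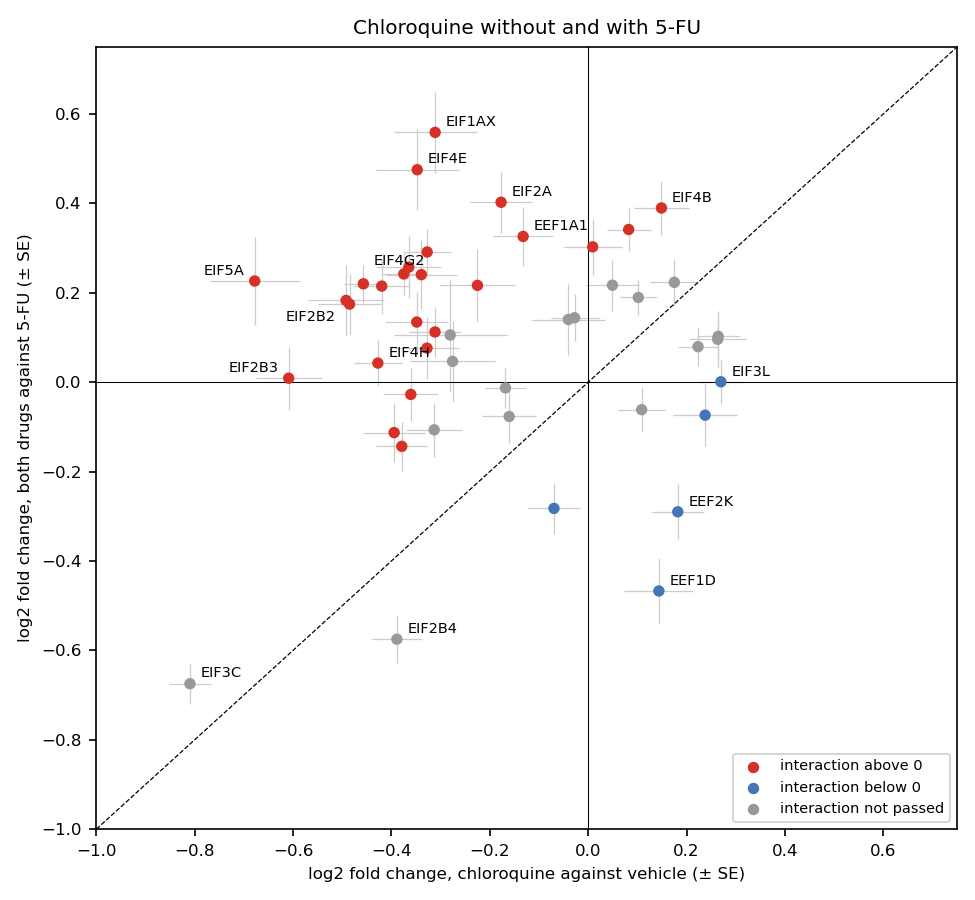
The log2 fold change of chloroquine against vehicle (horizontal axis) and of both drugs against 5-FU (vertical axis) for 46 factors, without EIF4A1, with SE bars, coloured by the interaction test, and a dashed line of equal effects. Points of an interaction above 0 fill the upper left, EIF3C and EIF2B4 lie low on the left near the line, and EEF2K and EEF1D lie below 0 on the vertical axis and right of 0 on the horizontal axis.

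Adding 5-FU to chloroquine lowered 21 of 47 factors, raised 11 and left 15 short of the threshold, where 25.7% of all genes fell and 24.8% rose (50.6% in all). A 2-fold fall was measured for EIF3L, EEF2K and the row of EIF4A1, where 4.42% of all genes fell and 4.69% rose that much. The median was -0.094 over the factors and -0.0135 over all genes, and 33 factors did not overlap, against 60.5% of all genes. Among the 10299 genes at or above the lowest level of a tested factor, 33.2% fell and 29.8% rose, with a median of -0.0163. Of the 35 factors that fell with 5-FU alone, 18 also fell here, 13 did not pass and 4 rose (EIF2B2, EIF2B3, EIF3M and EIF4G2). These pairs of calls were not counted over all genes. EIF3L (-1.30 ± 0.050 SE, adjusted p = 2.34e-10), EEF2K (-1.09 ± 0.060 SE, adjusted p = 6.07e-09), EEF2 (-0.85 ± 0.070 SE, adjusted p = 2.75e-07), EEF1A1 (-0.74 ± 0.066 SE, adjusted p = 5.26e-07), EIF4B (-0.74 ± 0.060 SE, adjusted p = 2.42e-07) and EIF3F (-0.73 ± 0.048 SE, adjusted p = 3.08e-08) had the largest falls outside EIF4A1, which was at -2.32 in its own row and -0.36 ± 0.062 (SE; adjusted p = 0.000258) with copies. The largest rises were those of EIF5 (0.85 ± 0.047 SE, adjusted p = 6.44e-09), EIF3J (0.59 ± 0.068 SE, adjusted p = 6.09e-06) and EIF2S1 (0.51 ± 0.070 SE, adjusted p = 3.15e-05). Of the 8 factors of initiator tRNA binding and start codon choice 2 rose and 6 did not pass. The call of EIF2B3 (0.20) was lost without chloroquine 1, chloroquine 2 or combination 3 (0.14 to 0.17), that of EIF2B4 (-0.14) in 12 of the 13 fits that each left out 1 library, those without 5-FU 1 excepted (-0.16 to -0.11), that of EIF3B (-0.18) without chloroquine 1, chloroquine 3, 5-FU 3, combination 1 or combination 2 (-0.20 to -0.14), that of EIF3C (-0.16) without combination 1 (-0.13) and that of EIF4A2 (-0.16) without chloroquine 3 (-0.10) or combination 2 (-0.13).

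Read against the start sequences shown above, the 10 factors with a pyrimidine run at the annotated start had a median log2 fold change of 0.0589 with chloroquine, where 4 rose and 3 fell, and the 27 tested factors without it a median of -0.348, where 5 rose and 20 fell. The ranges overlapped, from -0.42 to 0.264 with the run and from -0.81 to 0.269 without it. With 5-FU the medians were -0.554 and -0.277, with 8 of 10 and 18 of 27 falling. With the combination they were -0.365 and -0.176, with 7 of 10 and 15 of 27 falling. The median of the factors with the run was the higher of the 2 with chloroquine and the lower with 5-FU and the combination. EEF1A1, EEF2, EIF4B and EIF3F, all with the run, were lower with 5-FU, while EIF4A2 and EIF3D, also with the run, did not pass there. With the run allowed within 10 bases the medians were -0.0302 for 18 factors and -0.361 for 19 with chloroquine, and -0.359 and -0.277 with 5-FU. These are descriptions, with no test, and a missing run says only that these letters are not at the annotated start. Factors with no matched promoter, EIF3L, EEF1D and PABPC1 among them, are in neither group.

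Other genes of translation were counted in 6 lists, none of them tested as a set. Beside these counts, 20.3% of all genes rose and 19.1% fell with chloroquine (39.4% in all). With 5-FU 30.8% rose and 29.5% fell (60.3% in all), and with the combination 28.1% rose and 27.2% fell (55.4% in all). Of the 6 kinases and phosphatases of eIF2, 3 rose and 3 did not pass with chloroquine, 1 rose and 3 fell with 5-FU, and 2 rose and 3 fell with the combination. PPP1R15A, which encodes the stress-induced phosphatase subunit GADD34, rose by 1.07 ± 0.085 (SE; adjusted p = 6.07e-07), 1.75 ± 0.084 (SE; adjusted p = 7.1e-10) and 1.66 ± 0.084 (SE; adjusted p = 1.36e-09) with chloroquine, 5-FU and the combination. EIF2AK3, the kinase PERK, rose with chloroquine by 0.43, and EIF2AK4, the kinase GCN2, fell with 5-FU (-0.58) and the combination (-0.18). Among 19 genes of the TOR pathway and eIF4E control, 4 rose and 3 fell with chloroquine, 4 rose and 9 fell with 5-FU, and 5 rose and 10 fell with the combination. DDIT4, a stress-induced inhibitor of mTOR, rose with chloroquine (0.41 ± 0.10 SE, adjusted p = 0.00564) and fell with 5-FU (-0.83 ± 0.11 SE, adjusted p = 1.29e-05) and the combination (-1.01 ± 0.11 SE, adjusted p = 2.51e-06). SESN1, a p53 target that inhibits mTOR, rose with 5-FU (0.57) and the combination (0.83), and MTOR itself fell with 5-FU (-0.46) and the combination (-0.60).

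Of 14 genes that modify eIF5A, eEF2 and eEF1A, 1 rose and 6 fell with chloroquine, 3 rose and 6 fell with 5-FU, and 3 rose and 7 fell with the combination. DHPS, which carries out the first step of hypusine formation on eIF5A, rose with 5-FU (1.01 ± 0.12 SE, adjusted p = 4.35e-06), opposite to EIF5A. It did not pass with chloroquine (0.23, adjusted p = 0.167) or the combination (-0.15, adjusted p = 0.349). DPH6, of the diphthamide pathway of eEF2, fell with chloroquine (-0.65), 5-FU (-1.28) and the combination (-1.44). EEF1AKMT3, a lysine methyltransferase of eEF1A, rose with chloroquine (0.91), 5-FU (0.72) and the combination (1.16), and EEF1AKMT1, another, fell with chloroquine (-0.89) and the combination (-0.45). Of 9 tested genes of termination and ribosome rescue, 6 fell and 3 did not pass with chloroquine, 7 fell and 2 rose with 5-FU, and 6 fell and 3 did not pass with the combination. GSPT1, the release factor eRF3a, fell with chloroquine (-0.27 ± 0.039 SE, adjusted p = 9.41e-05), 5-FU (-0.77 ± 0.039 SE, adjusted p = 1.36e-09) and the combination (-0.54 ± 0.039 SE, adjusted p = 5.17e-08). Of 11 accessory initiation factors, 3 rose and 2 fell with chloroquine, 8 fell and 3 did not pass with 5-FU, and 3 rose and 5 fell with the combination. EIF2D, which can deliver initiator tRNA without eIF2, rose with chloroquine (0.46) and fell with 5-FU (-0.49) and the combination (-0.41), and DHX29, a scanning helicase, fell in all 3 (-0.38, -0.65 and -0.53).

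Of 9 tested relatives of the factors, 3 rose and 2 fell with chloroquine, 2 rose and 6 fell with 5-FU, and 3 of each with the combination. EEF1A2, the second eEF1A gene, read 52.3, 50.7, 52.1 and 53.5 CPM in the vehicle libraries and 43.5, 43.7 and 44.6 CPM with chloroquine. EEF1A2 read 139.6, 100.2 and 108 CPM with 5-FU and 88.0, 84.4 and 102 CPM with the combination. Its 5-FU and combination libraries were above vehicle, and it rose by 1.15 ± 0.095 (SE; adjusted p = 1.29e-07) and 0.81 ± 0.095 (SE; adjusted p = 5.5e-06) where EEF1A1 fell. PABPC1L, a relative of PABPC1, read 14.1, 15.8, 14.6 and 13.7 CPM in the vehicle libraries and 18.3, 16.6 and 18.2 CPM with chloroquine. PABPC1L read 36.3, 31.4 and 31.7 CPM with 5-FU and 9.52, 10.0 and 10.4 CPM with the combination. The chloroquine and 5-FU libraries were above vehicle and the combination libraries below it, with a rise of 0.29 with chloroquine and, with 5-FU and the combination, log2 fold changes of 1.19 ± 0.070 (SE; adjusted p = 5.27e-09) and -0.54 ± 0.078 (SE; adjusted p = 3.68e-05). EIF4E3, a further cap-binding relative, rose with chloroquine (0.34) and the combination (0.42) and fell with 5-FU (-0.53).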

How the data were processed

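Total RNA of 13 libraries was prepared with a directional kit, per the labels' protocols. The values the authors deposited are raw counts of reads, by gene symbol, in 1 table. How reads were aligned and counted, with which annotation and strand setting, is not stated in the labels. The submitters' processing notes name DESeq and the mouse build GRCm38 beside human symbols, so no coordinates were taken from the counts. The totals ran from 17834539 to 23679833.

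Groups and replicate numbers came from the labels. Genes were filtered with filterByExpr, which left 19514 of 60591, and scaled by TMM. With edgeR 4.0.16 (R 4.3.3), 1 quasi-likelihood fit over the 13 libraries, each group having its own mean, gave 6 comparisons, with Benjamini-Hochberg adjustment over all genes tested. The script was tested on simulated data. No 2 libraries were alike within sampling noise. Between 5-FU and the combination, libraries with the same number deviated together in each of 3 pairs (correlations of residuals 0.341, 0.743 and 0.339), and those numbers were taken to pair them. The labels state no such pairing. The pair at 0.743, 5-FU 2 and combination 2, also shares over 50 counts of COL1A2, whose part was not tested. Chloroquine 3 was at 0.513 with 5-FU 3 and 0.521 with combination 3, and chloroquine 1 at -0.448 and -0.441 with 5-FU 1 and combination 1. Alternatives were DESeq2 1.42.0, limma-voom (limma 3.58.1), RLE and library-size scaling, 2 filters, the replicate block, terms or subsets by COL1A2, a fold threshold and leaving out each library. The subset above 50 counts of COL1A2, the block in 6 libraries and the adding of copies were chosen after seeing the data. Start sites are from RefSeq GRCh38.p14, exons from GENCODE release 29. Genes and lists were chosen with earlier results of these data known. All 48 factors were reported, and other genes from among the 2 largest called rises and falls of each list in a comparison. Not every value of those other genes was given.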

Additional observations from a re-analysis of the deposited data

Results flagged for a closer look

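In vehicle, 1 of 47 factors had a library far from the others: EIF3D had 359 CPM in vehicle 4 and 349 to 351 CPM in the other 3, a gap of 0.831 of the range. Chance gives about 1 in 20 such groups. Vehicle 4 is the vehicle library with over 50 counts of COL1A2, whose part was not tested.

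The effect of chloroquine differed with and without 5-FU, by the interaction test of edgeR, for 31 of 47 factors and for 39.9% of all genes. On the log2 scale the interaction was 0.87 for EIF1AX, 0.58 for EIF2A, 0.62 for EIF2S1, 0.40 for EIF2S2, 0.29 for EIF2S3, 0.62 for EIF5 and 0.58 for EIF5B. In eIF2B it was 0.68 for EIF2B2, 0.62 for EIF2B3 and -0.21 for EIF2B5. In eIF3 it was 0.28 for EIF3B, 0.44 for EIF3E, 0.42 for EIF3I, 0.66 for EIF3J, 0.48 for EIF3K, -0.27 for EIF3L and 0.63 for EIF3M. Of the eIF4 genes it was -2.57 for EIF4A1 in its own row, 0.24 for EIF4B, 0.82 for EIF4E, 0.62 for EIF4E2, 0.24 for EIF4G1, 0.68 for EIF4G2 and 0.47 for EIF4H. It was 0.33 for EIF4A3 and 0.90 for EIF5A, and among elongation and tail-binding genes 0.46 for EEF1A1, -0.61 for EEF1D, -0.31 for EEF2, -0.47 for EEF2K and 0.26 for PABPC1.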

How the results depend on the processing

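Comparisons are given in the order chloroquine, 5-FU and combination against vehicle, combination against 5-FU, combination against chloroquine, and interaction. With the fold threshold set aside, a call held in every setting for 20 of 37, 27 of 39, 24 of 33, 15 of 24, 24 of 32 and 19 of 31 factors. The counts in this section are of factors, without the share of all genes in each setting. Requiring an absolute log2 fold change of 1 left 0, 3, 3, 1, 3 and 1. With 1 library left out the numbers called ran from 29 to 37, 36 to 40, 30 to 37, 21 to 27, 29 to 34 and 26 to 34, and the medians from -0.29 to -0.23, -0.40 to -0.37, -0.29 to -0.26, 0.099 to 0.13, -0.11 to -0.072 and 0.25 to 0.33. With the replicate block over all libraries 35, 37, 33, 24, 31 and 32 were called, and the median interaction was 0.30. Scaling by library size alone gave medians of -0.18, -0.20, -0.13, 0.069, -0.041 and 0.14. The filter at 10 CPM in 3 libraries gave -0.22, -0.29, -0.21, 0.076 and, for the interaction, 0.19. Without a filter the median interaction was 0.30. A term for libraries with over 50 counts of COL1A2 gave medians of -0.25 with chloroquine and 0.24 for the interaction. The 8 libraries at or under 50 gave 22 factors called with chloroquine (-0.22), a median of -0.14 between the combination and chloroquine, and an interaction of 0.24. The 5 libraries above 50, with 1 library in each group but chloroquine, whose 2 libraries alone give the spread, gave -0.19 with chloroquine, -0.37 with 5-FU and 0.26 for the interaction. Adding copies gave -0.42 with 5-FU, 0.14 between the combination and 5-FU, and -0.13 between the combination and chloroquine. No median changed sign.

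Single factors changed sign as follows. With copies added EIF4A1 was at -0.71 with chloroquine, -1.08 with 5-FU, 0.014 between the combination and 5-FU, and 0.73 for the interaction. EIF1 with 5-FU was at 0.094 with scaling by library size alone and 0.0023 with the filter at 10 CPM. EIF4EBP2 with 5-FU was at 0.028 with scaling by library size alone. EIF2S2 with the combination was at 0.011 in the libraries above 50, 1 on each side. The causes were not tested, beyond what each setting leaves out or adds. Depth limits EIF4A1 most, with 65 counts in 1 library.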
